A study of Mus musculus with 9 samples.

Results

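Osteocyte genes in the coronal suture were followed across 9 RNA sequencing libraries. The genes were 10 named markers of osteocytes and of the cells that turn into them: Dmp1, Mepe, Phex, Sost, Fgf23, Pdpn, Irx5, Kcnk2, Fam20c and Reln. They were taken by symbol from the deposited table of 43644 genes, and all 10 were found. The libraries came from C57BL/6 mice at 7 months of age, in 3 groups of 3. REG mice were Twist1+/- and had suture regeneration surgery at 1 month of age. MUT mice were Twist1+/- without surgery, and WT mice were wild type without surgery. The series' own design text instead speaks of 1 week after induction, which the sample labels do not explain, so the time between surgery and collection in REG rests on the sample labels. REG and MUT thus share the loss of 1 Twist1 copy, which the labels give as a genotype with no tissue-specific driver, and no sham-operated group is named. Nor do they tie the libraries to separate animals, so p-values speak only to library-to-library spread, which may be technical. MUT against WT addresses what differs in the unoperated Twist1+/- suture, and REG against MUT what differs after surgery.

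Osteocytes are former osteoblasts that have become enclosed in the bone matrix they made, where they sense load and steer mineral and bone turnover. They secrete matrix phosphoproteins, a hormone that makes the kidney excrete phosphate, and sclerostin, which restrains bone formation by blocking Wnt signalling. In the skull vault they lie in the bone fronts on both sides of a suture, so a dissected suture holds some of them beside mesenchyme, osteoblasts and vessels. Every one of the 10 genes was detected in all 9 libraries, and their summed deposited value was 167 to 370 in REG, 93.4 to 132 in MUT and 404 to 505 in WT. Dmp1 made up most of that sum in WT. Several of the genes are also used by other cells: Pdpn by lymphatic endothelium, meninges and keratinocytes, and Reln by neurons and lymphatic vessels. Kcnk2 is also used by neurons and meninges, and Irx5 by keratinocytes.

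The deposited values carry no stated unit and read, from the numbers, as gene counts scaled to a 75th percentile of 2.76 in every library. Estimated reads on genes were 18276494 to 39377876 in REG, 2945636 to 10894209 in MUT and 16356391 to 20019712 in WT. Background, estimated from 1747 odorant and vomeronasal receptor genes, took 0.509% to 0.849% of the reads in REG, 7.86% to 23.2% in MUT and 0.614% to 0.866% in WT. MUT replicate 2 stood apart from the other MUT libraries with the fewest reads and the lowest background of the 3. Twist1, the targeted gene, had values of 3.76, 9.19 and 12.2 in REG, 0.987, 8.08 and 0.548 in MUT and 16.2, 23.3 and 23.1 in WT, so every Twist1+/- library lay below every WT library. Its read density in MUT was only 1.81, 26.6 and 1.17 times background. MUT was 9.57-fold below WT (limma adjusted p = 0.0109). REG, of the same genotype as MUT, was 3.62-fold above it (limma adjusted p = 0.0808). What sets the size of these differences was not tested.

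In MUT against WT, 5 of the 10 genes passed the test, against a background of 35.1% of all 29107 genes tested. Dmp1, Mepe, Irx5 and Fam20c fell and Reln rose. In REG against MUT, 4 of 10 passed, against a background of 36.6%: Dmp1 and Mepe rose, and Fgf23 and Reln fell. In REG against WT none of the 10 passed, and the background was 0%. Calls are at an adjusted p under 0.05 from limma over all genes tested. Since both of the first comparisons use the same MUT libraries, their values are given side by side and not as separate evidence. In bulk tissue, fewer cells of a type and less RNA per cell cannot be told apart.

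Dmp1 and Mepe lie 111226 bases apart on chromosome 5 and were called in the same direction in both comparisons. Reln, on the same chromosome, was called in the opposite direction in both. The 250 bases upstream of the RefSeq start of these 3 genes (GRCm38.p6, gene strand, 5′ to 3′) are shown for that reason. They run chr5:104202367-104202616 on the plus strand for Dmp1, chr5:104325079-104325328 on the plus strand for Mepe and chr5:22344706-22344955 on the minus strand for Reln. Capitals mark the core motif of RUNX factors, TGTGGT or its reverse complement ACCACA.
Dmp1: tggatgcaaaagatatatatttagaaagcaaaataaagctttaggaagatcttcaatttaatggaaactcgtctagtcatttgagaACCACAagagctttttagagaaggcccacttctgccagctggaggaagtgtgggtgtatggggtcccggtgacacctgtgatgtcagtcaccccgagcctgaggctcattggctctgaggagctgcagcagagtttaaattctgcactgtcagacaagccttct
Mepe: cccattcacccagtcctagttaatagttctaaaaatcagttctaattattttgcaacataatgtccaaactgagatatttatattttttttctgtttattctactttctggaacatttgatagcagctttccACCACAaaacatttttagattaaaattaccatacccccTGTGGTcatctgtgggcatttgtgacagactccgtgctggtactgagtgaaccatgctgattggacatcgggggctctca
Reln: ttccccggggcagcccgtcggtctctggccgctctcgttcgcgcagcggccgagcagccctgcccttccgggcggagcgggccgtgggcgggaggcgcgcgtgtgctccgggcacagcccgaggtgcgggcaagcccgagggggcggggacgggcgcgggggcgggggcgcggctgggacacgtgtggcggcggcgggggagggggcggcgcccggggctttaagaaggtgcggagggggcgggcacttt
The RUNX core began 164 bases upstream of the Dmp1 start and 118 and 80 bases upstream of the Mepe start, and the Reln window held none. Both strands of the same window were searched in the 9 members found in the RefSeq table, and Irx5 was not matched there. The RUNX core was in 2 of 9 members and in 14% of 32851 promoters. The E-box CANNTG was in 8 of 9 members and in 66.2% of promoters, the MEF2 motif (CTA, then 4 bases of any kind, then TAG) in 0 of 9 and in 3.20%, and TATAAA in 1 of 9, Mepe, and in 12.4%. GC content was 45.6% for Dmp1, 38.0% for Mepe and 80.0% for Reln. These matches describe the letters only.

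Dmp1 encodes an acidic phosphoprotein of the bone matrix and is a standard marker of osteocytes (chromosome 5, 104202613 to 104214103, GRCm38). It was at 109, 114 and 248 in REG, at 50.8, 20.7 and 19.5 in MUT and at 358, 383 and 306 in WT. The 3 groups did not overlap: every MUT library was below every REG library, and every REG library below every WT library. Dmp1 fell to 30.4 ± 17.7 in MUT, against 349 ± 39.7 in WT (mean ± SD, n = 3), a log2 change of -3.64 ± 0.47 (SE) and 12.5-fold lower (limma adjusted p = 0.00134). It rose to 157 ± 79.1 in REG, against 30.4 ± 17.7 in MUT (2.39 ± 0.47, 5.25-fold, adjusted p = 0.00539). REG against WT gave -1.25, with a 95% interval from -2.31 to -0.20 and an adjusted p of 0.512. The lower level in MUT kept its call under all 22 alternative settings, with log2 changes from -4.08 to -2.18. The higher level in REG than in MUT kept it in 20 of 22, and missed it under quantile scaling (1.30, adjusted p = 0.157) and after background subtraction (1.29, adjusted p = 0.183). Without REG replicate 3, the highest REG library, REG against MUT gave 2.01 (adjusted p = 0.0129) and REG against WT -1.64 (adjusted p = 0.0717).

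**Figure D1:**
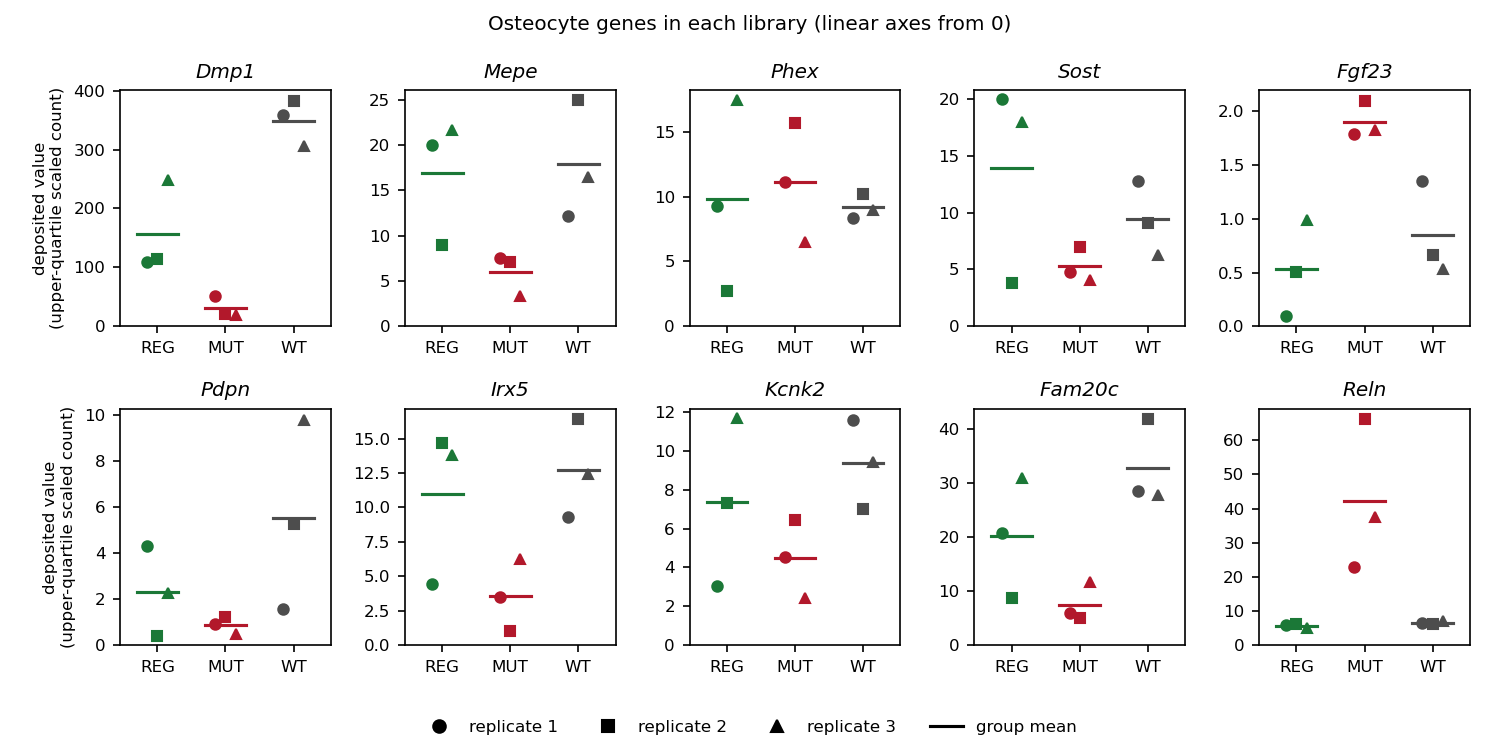
Deposited values (upper-quartile scaled counts, linear axes from 0) of the 10 osteocyte genes in each library, by group, with a line at the group mean (n = 3) and marker shape for the replicate number. Dmp1 is lowest in the 3 MUT libraries (19.5 to 50.8) and Reln is highest there (23 to 66.2), whereas Phex, at 6.51 to 15.7 in MUT, overlaps between all groups.

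Mepe, whose product belongs to the same family of acidic bone matrix proteins and carries a peptide that inhibits mineralization, begins 111226 bases beyond the end of Dmp1 (chromosome 5, 104325329 to 104338612). Its values were 20.0, 8.94 and 21.7 in REG, 7.48, 7.09 and 3.32 in MUT and 12.2, 25.0 and 16.5 in WT. MUT libraries were all below the other 6, and REG and WT overlapped. Mepe fell in MUT (-1.55 ± 0.48, 2.92-fold lower, adjusted p = 0.0316) and rose in REG against MUT (1.43 ± 0.48, 2.69-fold, adjusted p = 0.0411). Both calls were close to the threshold. The MUT against WT call was held under 11 of 22 alternatives. It was lost without WT replicate 2 (-1.28, adjusted p = 0.127), WT replicate 3 (adjusted p = 0.0838), MUT replicate 1 (adjusted p = 0.0659), MUT replicate 2 (adjusted p = 0.0517) and MUT replicate 3 (-1.19, adjusted p = 0.156). The call in REG against MUT was held under 5 of 22 and was lost without any 1 library other than REG replicate 2, with adjusted p from 0.0529 without WT replicate 1 to 0.199 without MUT replicate 3. REG against WT gave -0.12, with an interval from -1.19 to 0.95.

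Fam20c encodes the Golgi kinase that phosphorylates secreted proteins, including those encoded by Dmp1 and Mepe (chromosome 5, 138754514 to 138810078). It was at 20.7, 8.64 and 31.0 in REG, at 5.99, 4.91 and 11.6 in MUT and at 28.5, 41.9 and 27.7 in WT. All MUT libraries were below all WT libraries, and REG spanned the gap and overlapped both. Fam20c fell in MUT to 7.51 ± 3.61, against 32.7 ± 7.99 in WT (-2.14 ± 0.51, 4.40-fold lower, adjusted p = 0.0120). This call was held under 16 of 22 alternatives and was lost without MUT replicate 1 (-2.03, adjusted p = 0.0502) and without WT replicate 2 (-1.95, adjusted p = 0.0563). REG against MUT gave 1.29 ± 0.51 (adjusted p = 0.0721), with an interval from 0.16 to 2.43. Without REG replicate 2, the lowest REG library, it was 1.80 and passed (adjusted p = 0.0131).

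Phex encodes a membrane endopeptidase of osteoblasts and osteocytes whose loss causes X-linked hypophosphatemia (chromosome X, 157162075 to 157415313). It was at 9.26, 2.70 and 17.5 in REG, at 11.1, 15.7 and 6.51 in MUT and at 8.34, 10.2 and 8.98 in WT. The groups overlapped in every pair, and REG had both the lowest and the highest library. Neither MUT against WT (0.18, interval -1.15 to 1.51, adjusted p = 0.831) nor REG against MUT (-0.42, interval -1.75 to 0.91, adjusted p = 0.615) passed the test. Phex was called in 0 of 22 alternatives in each of the 3 comparisons. Its sign turned in MUT against WT without MUT replicate 2 (-0.10), and in REG against MUT without REG replicate 2 (0.28).

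Fgf23, the hormone by which bone lowers phosphate uptake in the kidney, had the lowest values of the members in WT (chromosome 6, 127072902 to 127081409). They were 0.0939, 0.507 and 0.986 in REG, 1.79, 2.10 and 1.83 in MUT and 1.35, 0.659 and 0.530 in WT. All MUT libraries were above the other 6, and they varied little among themselves. Fgf23 fell in REG against MUT (-1.47 ± 0.45, 2.78-fold lower, adjusted p = 0.0274), while MUT against WT gave 0.96 ± 0.45 (adjusted p = 0.119, interval -0.03 to 1.95). These values rest on 9.1 to 44.3 estimated reads per REG library, 20.0 to 109.0 per MUT library and 21.0 to 47.0 per WT library. The call in REG against MUT was held under 12 of 21 alternatives, and it was lost without MUT replicate 1 (-1.51, adjusted p = 0.0951), MUT replicate 2 (-1.41, adjusted p = 0.0764), MUT replicate 3 (-1.50, adjusted p = 0.0975) or REG replicate 1 (-1.06, adjusted p = 0.0764). Scaled to total reads, Fgf23 was called higher in MUT than in WT (1.96, adjusted p = 0.00828), where the median of all genes was 1.11. Read density at Fgf23 was 2.98 to 5.97 times the library's background in MUT, against 8.74 to 22.9 times in WT. After background was subtracted per length and libraries were scaled to total reads, Fgf23 was again called higher in MUT than in WT. The median of all genes was then 0.27. Under the deposited scaling the part of background in its values was not tested.

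Sost encodes sclerostin, the secreted inhibitor of Wnt signalling made by mature osteocytes (chromosome 11, 101962458 to 101967016). Its values were 20.0, 3.80 and 18.0 in REG, 4.75, 6.99 and 4.05 in MUT and 12.8, 9.13 and 6.27 in WT. REG held both the highest and the lowest library, and the groups overlapped in every pair. MUT against WT was not called (-0.77, interval -2.10 to 0.55, adjusted p = 0.331), and the sign turned with total-read scaling (0.41) and after background subtraction (0.50). REG against MUT was not called either (1.07, interval -0.25 to 2.40, adjusted p = 0.183). It passed without REG replicate 2 (1.81, adjusted p = 0.00943), the REG library in which Sost, Phex, Mepe, Fam20c and Pdpn were all at their lowest for the group.

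Pdpn encodes podoplanin, a membrane glycoprotein of early osteocytes that is needed for their dendrites (chromosome 4, 143267431 to 143299565). It was at 4.29, 0.385 and 2.26 in REG, at 0.913, 1.20 and 0.486 in MUT and at 1.55, 5.25 and 9.78 in WT. MUT and WT did not overlap, and REG spanned MUT. Mean values were 0.866 ± 0.358 in MUT and 5.53 ± 4.12 in WT (-2.00 ± 0.74, adjusted p = 0.0591), so the difference missed the threshold. It passed without WT replicate 1 (adjusted p = 0.0349), without REG replicate 1 (adjusted p = 0.0441) and without REG replicate 2 (adjusted p = 0.0201). REG against MUT gave 0.81 (interval -0.84 to 2.46, adjusted p = 0.422). In MUT, read density at Pdpn was 0.925 to 3.28 times background, and in MUT replicate 3 it was thus at the level of background. The 6 markers of lymphatic endothelium, which also uses Pdpn, summed to 30.4 to 38.3 in MUT and 33.2 to 40.2 in WT. Among them Prox1 averaged 17.3 in MUT and 1.34 in WT, while 2 others were called lower in MUT. Meninges and keratinocytes use Pdpn as well. Meningeal markers summed to 17.7 to 29.3 in MUT and 71.6 to 91.1 in WT. Keratinocyte markers summed to 49.7 to 248 in MUT and 8.92 to 13.1 in WT. The part of these cells in the Pdpn values was not tested.

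Irx5, a homeobox transcription factor, was at 4.44, 14.7 and 13.8 in REG, at 3.50, 0.998 and 6.28 in MUT and at 9.34, 16.4 and 12.4 in WT (chromosome 8, 92357625 to 92376287). MUT lay below WT without overlap, and REG replicate 1 fell within the MUT range. Irx5 fell in MUT (-1.96 ± 0.63, 3.90-fold lower, adjusted p = 0.0360), a call held under 11 of 22 alternatives. It was lost without WT replicate 1 (adjusted p = 0.0632), WT replicate 2 (-1.77, adjusted p = 0.122), WT replicate 3 (adjusted p = 0.0941), MUT replicate 1 (adjusted p = 0.0775) or MUT replicate 2 (-1.33, adjusted p = 0.118). REG against MUT gave 1.63 ± 0.63 (adjusted p = 0.0676), and it passed without REG replicate 1 (2.16, adjusted p = 0.0283).

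Kcnk2 encodes TREK-1, a potassium channel that opens on membrane stretch (chromosome 1, 189207930 to 189402274). It was at 3.02, 7.31 and 11.7 in REG, at 4.52, 6.44 and 2.42 in MUT and at 11.6, 7.02 and 9.43 in WT. The MUT libraries were below the WT libraries by a narrow margin, and REG overlapped both. MUT against WT was not called (-1.07, interval -2.23 to 0.08, adjusted p = 0.133) and turned to 0.09 with total-read scaling. REG against MUT was not called (0.59, interval -0.57 to 1.74, adjusted p = 0.407). An antisense gene, A430027H14Rik, shares 604 exon bases, or 12.2% of the Kcnk2 exons. The strand setting of the counting is not given in the sources used here, so reads within those shared bases cannot be assigned to either gene.

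Reln encodes reelin, a large secreted glycoprotein known best as a positional signal for migrating neurons and also used as an osteocyte marker in mouse bone (chromosome 5, 21884454 to 22344703). Its values were 5.84, 6.12 and 5.07 in REG, 23, 66.2 and 37.4 in MUT and 6.38, 6.20 and 6.91 in WT. Every MUT library was above every other library, and REG and WT each stayed within a narrow range. Reln rose to 42.2 ± 22.0 in MUT, against 6.50 ± 0.370 in WT (2.50 ± 0.40, 5.66-fold, adjusted p = 0.00262). It fell to 5.67 ± 0.544 in REG, against 42.2 ± 22.0 in MUT (-2.69 ± 0.40, 6.45-fold lower, adjusted p = 0.00215). Both calls were held under all 22 alternatives, with log2 changes from 2.06 to 3.82 in MUT against WT and from -3.63 to -2.18 in REG against MUT. With MUT replicate 2 as the only MUT library, which is then assumed to vary like the other groups, the changes were 3.28 (adjusted p = 0.0155) and -3.47 (adjusted p = 0.0159). REG libraries were all just below WT libraries for Reln (-0.19, interval -1.08 to 0.71, adjusted p = 0.889).

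Set against the background of the same library, Reln in MUT lay on both sides of the other groups: its read density was 11.2 to 11.7 times background in REG, 2.94 to 15.1 times in MUT and 8.39 to 10 times in WT. MUT replicate 1 was lowest by this measure and MUT replicate 2 highest. After background was subtracted per length and libraries were scaled to total reads, the change in MUT against WT was 3.82 (adjusted p = 0.000671), with the median of all genes at 0.27. Markers of other cells that use Reln also differed by group: 10 neuron markers summed to 14.8 to 28.3 in REG, 45.7 to 100 in MUT and 17.8 to 25.1 in WT, and their part in the Reln values was not tested. In MUT against WT, 4 of these 10 markers were called higher and 1 lower. These counts, and those of the lymphatic markers below, stand beside 20.5% of all genes called higher and 14.6% lower. Of the 4 called higher, Snap25 had a read density of 1.03 to 3.19 times background in MUT and Gad1 of 1.77 to 1.95 times. Gad2 was at 2.36 to 8.83 times and Rbfox3 at 10.3 to 56.1 times. Rbfox3, a splicing factor of neurons, made up much of the MUT sums, at 1.83, 2.00 and 0.674 in REG, 19.7, 60.2 and 40.3 in MUT and 1.79, 0.544 and 0.859 in WT. Of the 6 lymphatic markers, 1 was called higher in MUT than in WT, the transcription factor Prox1 (3.33, adjusted p = 0.00114), and 2 lower, Pecam1 (-1.78, adjusted p = 0.00956) and Ccl21a (-1.70, adjusted p = 0.0364). Their sums overlapped between MUT and WT. An antisense predicted gene, Gm10475, shares 246 exon bases, or 1.04% of the Reln exons.

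Across the members, the median log2 change was -1.31 in MUT against WT, beside 0.18 over all genes tested, and 0.94 in REG against MUT, beside -0.36. In REG against WT it was -0.41, beside -0.18. In MUT against WT, 4 of 10 were called lower, against 14.6% of all genes, and 1 higher, against 20.5%. REG against MUT had 2 called higher, against 11.8%, and 2 lower, against 24.8%. The reference depends on the level of the genes in it. With a filter value 10 times higher, 11449 genes and 9 of the members were tested. Over those genes the median in MUT against WT was -0.99, with 3985 called lower and 910 higher. Of the members, 5 were then called lower and 1 higher. In the main fit, the 5 calls in MUT against WT became 2 without WT replicate 2 or MUT replicate 1, and 3 without WT replicate 3 or MUT replicate 2. The 4 calls in REG against MUT became 2 without any 1 of the MUT libraries. Groups did not overlap for 8 of 10 members in MUT against WT, all but Phex and Sost, where 58.5% of all genes did not overlap. They did not overlap for 4 members in REG against MUT (Dmp1, Mepe, Fgf23 and Reln, background 42.5%) and for 2 in REG against WT (Dmp1 and Reln, background 16.1%). The count of 0 calls in REG against WT came from limma. At an unadjusted p under 0.05 in limma there was 1 member, Dmp1, and 2755 of 29107 genes. Without REG replicate 3, 1616 genes were called in REG against WT and still none of the members. The authors' deposited table, in which the ratios run WT over MUT, REG over MUT and WT over REG, has 5, 4 and 0 of the members at an FDR under 0.05.

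**Figure D2:**
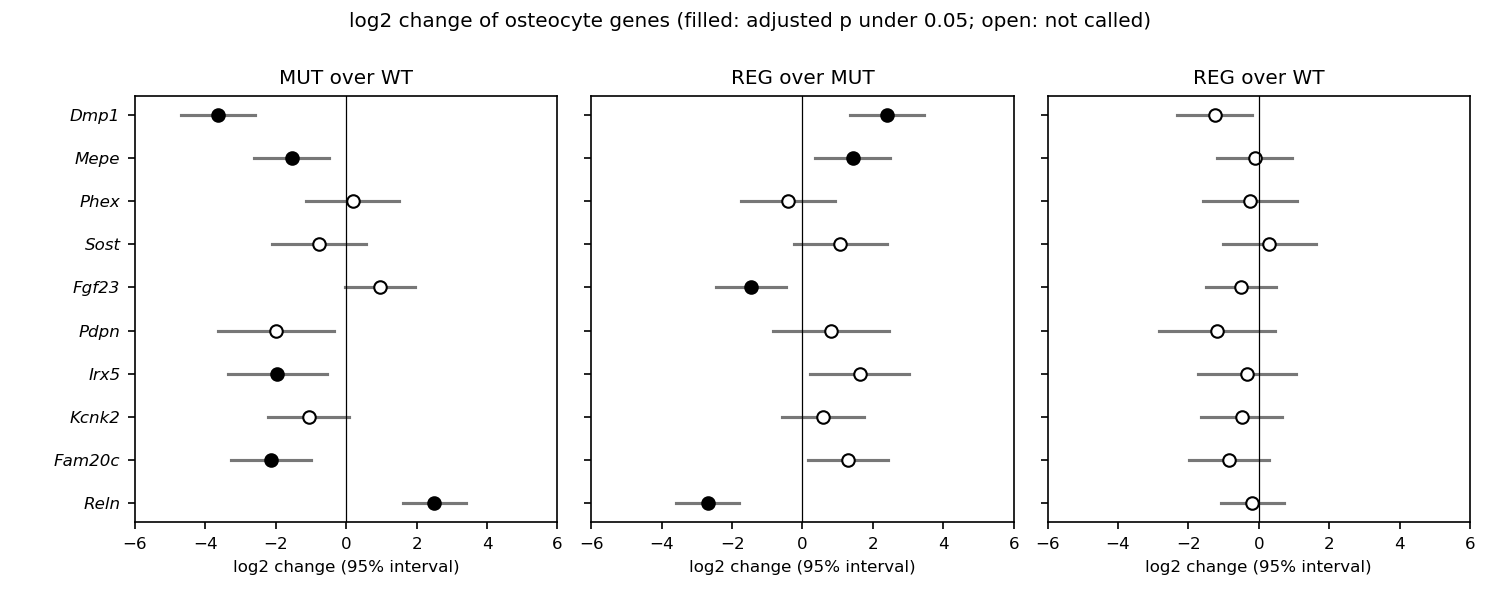
Log2 change of each osteocyte gene in MUT over WT, REG over MUT and REG over WT, with 95% intervals from limma on log2(value + 0.367), where filled points passed at an adjusted p under 0.05 and open points did not. Dmp1 (-3.64) and Reln (2.50) are the farthest from 0 in MUT over WT, and every point is open in REG over WT.

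The members differed in how much they varied within a group. The median SD of their log2 values was 0.93 in REG, 0.62 in MUT and 0.37 in WT, beside 0.69, 0.50 and 0.29 over all genes tested. In REG the range between libraries was widest for Pdpn (11.1-fold), Fgf23 (10.5-fold), Phex (6.48-fold) and Sost (5.26-fold), and narrowest for Reln (1.21-fold). In WT it was 1.12-fold for Reln, 1.23-fold for Phex and 1.25-fold for Dmp1, and 6.30-fold for Pdpn. REG replicate 3 had the highest REG value for Dmp1, Mepe, Phex, Fgf23, Kcnk2 and Fam20c. The name of that library differs in form from those of the other REG libraries, which the labels do not explain. Whether the REG libraries were handled alike was not tested. With REG replicate 3 as the only REG library, which is then assumed to vary like the other groups, Dmp1 was at -0.48 and Fam20c at -0.05 in REG against WT, and neither was called.

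Read density over background gives the members another reading, since MUT carried more background. Dmp1 was at 1796 to 4964 times background in REG, 25.5 to 55.7 times in MUT and 3467 to 5362 times in WT. Fam20c was at 57.0 to 260 times in REG, 2.75 to 6.37 times in MUT and 132 to 246 times in WT. Irx5 and Kcnk2 reached 1.56 to 7.23 and 1.75 to 6.96 times in MUT, against at least 93.3 and 54.7 times in WT. By this measure all members except Reln and Fgf23 were lower in every MUT library than in every REG and WT library. The ratio falls wherever background rises, so it does not measure expression alone.

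**Figure D3:**
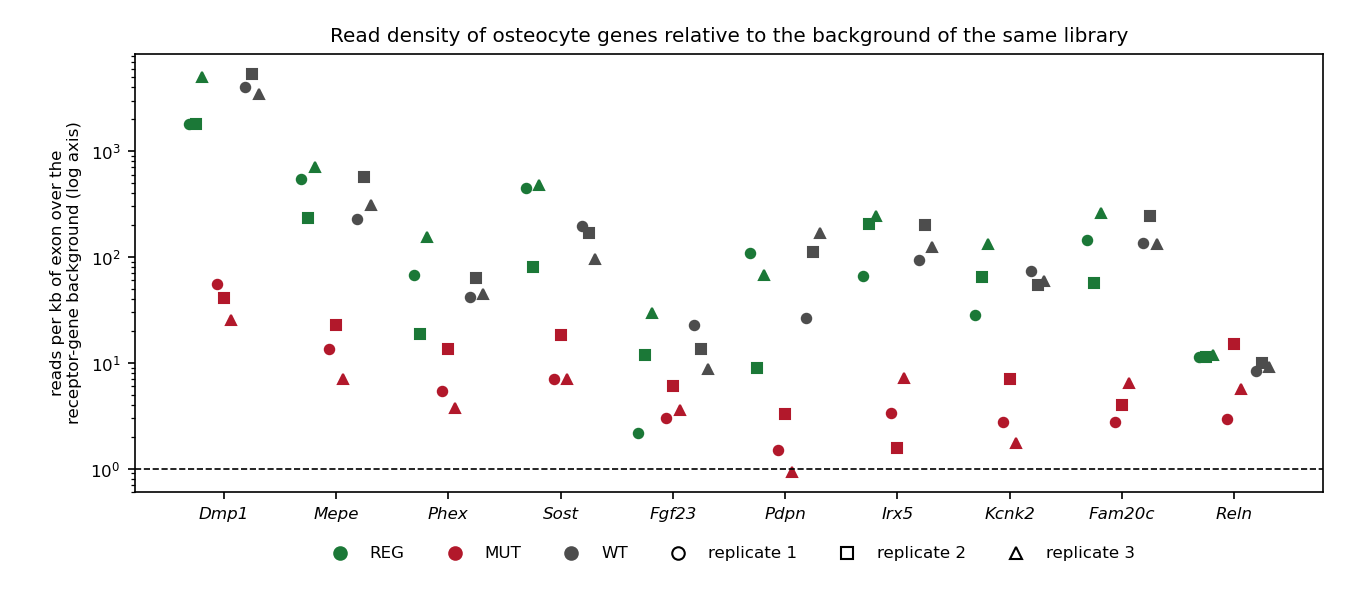
Reads per kb of exon of each osteocyte gene divided by the receptor-gene background of the same library (log axis), for REG, MUT and WT libraries, with a dashed line where a gene equals background. Pdpn in MUT replicate 3 (0.925) is under the line, and for Reln the MUT libraries (2.94 to 15.1) surround those of REG and WT.

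The members' values depended on the scaling between libraries. With total-read scaling the median of all genes in MUT against WT was 1.11 in place of 0.18, and 11734 genes were called higher and 876 lower in place of 5964 and 4261. The members called were then Dmp1 lower (-2.40) and Fgf23 (1.96) and Reln (3.73) higher, so Mepe (-0.35, adjusted p = 0.553), Irx5 (-0.83, adjusted p = 0.417) and Fam20c (-0.93, adjusted p = 0.213) lost their calls and kept their signs. Under quantile scaling, with the median of all genes at -0.03, those called were Dmp1 (-2.19), Pdpn (-2.42) and Reln (3.39). In REG against MUT, total-read scaling put the median of all genes at -1.04 and called Dmp1 (1.51), Fgf23 (-2.25) and Reln (-3.57). Dmp1 and Reln kept their direction in both comparisons under each of the 4 scalings.

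**Figure D4:**
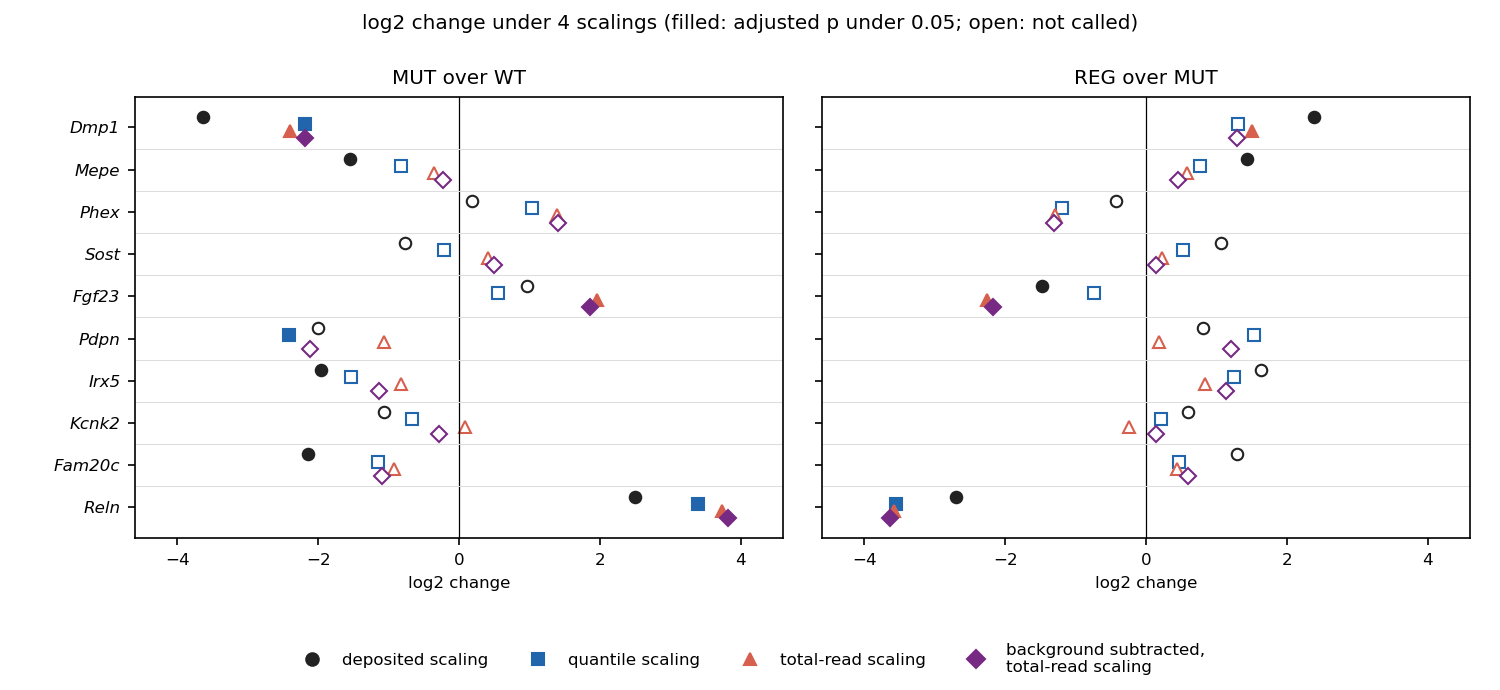
Log2 change of each osteocyte gene in MUT over WT and in REG over MUT under the deposited scaling, quantile scaling, total-read scaling and background subtraction followed by total-read scaling, with filled symbols at an adjusted p under 0.05. Dmp1 stays below 0 in MUT over WT (-3.64 to -2.18) and Reln above 0 (2.50 to 3.82), while Sost crosses 0.

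Per length, Dmp1 was the most abundant member in every group, at 144 ± 51.1 RPKM in REG, 57.1 ± 40.7 in MUT and 258 ± 24.9 in WT (estimated reads per kb of exon and per 1e+06 reads, mean ± SD, n = 3), and its libraries did not overlap those of the next gene. Mepe had the next highest mean in all groups, at 25.7 ± 8.81 RPKM in REG, 17 ± 7.01 in MUT and 21.4 ± 6.26 in WT, and overlapped the gene below it, Sost, in REG and in MUT. In WT the order went on with Fam20c (10 ± 1.72), Sost (9.36 ± 3.64), Irx5 (8.21 ± 1.73), Pdpn (6.15 ± 4.73), Kcnk2 (3.91 ± 1.20) and Phex (2.97 ± 0.110), where each overlapped the next. Fgf23 (0.941 ± 0.555) and Reln (0.560 ± 0.0592) were last and overlapped each other. Reln was also last in REG, at 0.635 ± 0.144 RPKM. In MUT it stood higher in the order, at 8.15 ± 2.34 RPKM, next to Phex at 8.20 ± 1.85.

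The difference between genes of the same library, on log2(value + 0.367), depends little on the scaling where both lie well above 0.367. Relative to the median of 12 osteoblast markers in the same library, Dmp1 stood at log2 0.73 to 1.57 in REG, -1.12 to 1.93 in MUT and 1.78 to 2.27 in WT, so the MUT libraries spread beyond the REG range on both sides. Mepe overlapped between all groups by this measure (-2.89 to -1.23 in REG, -2.62 to -0.77 in MUT, -2.56 to -1.98 in WT), and so did Fam20c and Irx5. For Fam20c and Irx5 the overlap of MUT with the other groups came from MUT replicate 2 alone, at -3.12 and -5.07. There Irx5 had 9.0 estimated reads. MUT replicates 1 and 3 were above all REG and WT libraries, at -1.08 and 0.07 for Fam20c and -1.79 and -0.78 for Irx5. Reln stood at -3.95 to -2.94 in REG, 0.54 to 1.72 in MUT and -3.93 to -3.46 in WT. Phex (-4.49 to -2.23 in REG, -1.51 to -0.23 in MUT, -3.26 to -3.09 in WT) was, like Reln, higher in MUT without overlap. Fgf23 and Pdpn were too low in some libraries for this measure. The 12 osteoblast markers themselves were 9 lower and 0 higher in MUT against WT, with a median of -2.52, and 7 higher and 0 lower in REG against MUT, with a median of 2.16.

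Related genes from lists chosen with earlier results in view gave the following counts, which stand beside 20.5% of all genes called higher and 14.6% lower in MUT against WT, and 11.8% higher and 24.8% lower in REG against MUT. With the filter value 10 times higher, 3985 of 11449 genes were called lower and 910 higher in MUT against WT. Of 14 other osteocyte-enriched genes, 8 fell and 0 rose in MUT against WT (median -1.50), and 8 rose and 0 fell in REG against MUT (median 1.54). Cd44, a hyaluronan receptor of the osteocyte membrane, fell in MUT (-2.12, adjusted p = 0.00450), and so did Mmp14, a membrane-bound matrix protease (-3.18, adjusted p = 0.00465). Capg, an actin-capping protein, rose in REG against MUT (2.45, adjusted p = 0.00234), as did Mmp14 (3.65, adjusted p = 0.00282). Tnfsf11, the RANKL by which osteocytes call up osteoclasts, and Gja1, the connexin of their gap junctions, were also called in both comparisons. Read density at Tnfsf11 in MUT was 3.61, 0.544 and 0.668 times background, with 2.2 estimated reads in MUT replicate 2. Of 16 genes of the bone matrix family and of phosphate handling, 8 fell and 1 rose in MUT against WT (median -1.52), and 9 rose and 1 fell in REG against MUT (median 1.70). Alpl, the alkaline phosphatase of mineralizing cells, was at -3.54 in MUT against WT (adjusted p = 0.00183) and 3.31 in REG against MUT (adjusted p = 0.00232). Ank, a transporter that raises extracellular pyrophosphate, was at -2.49 (adjusted p = 0.00331) and 2.50 (adjusted p = 0.00330). The member that went the other way was Dspp, a dentin matrix relative of Dmp1, at 1.46 (adjusted p = 0.0209) and -1.70 (adjusted p = 0.0111). Its deposited values averaged 0.185 in REG and 1.53 in MUT, and its read density in MUT was 0.791 to 2.08 times background.

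In the other lists few genes were called, in shares not far from those over all genes. Of 10 genes listed for the sclerostin pathway, 2 fell and 0 rose in MUT against WT (median -0.92). Those that fell were Ctnnb1, the beta-catenin of Wnt signalling (-2.14, adjusted p = 0.00938), and Lrp4, a receptor that anchors sclerostin (-1.96, adjusted p = 0.0201). Ctnnb1 rose in REG against MUT (1.69, adjusted p = 0.0215) and Sostdc1, a relative of Sost, fell (-1.43, adjusted p = 0.00887). Sostdc1 values in REG were only 0.174, 0.112 and 0.268. Its read density in MUT was 1.77 to 3.65 times background, against 8.91 to 49.2 times for Ctnnb1 and 5.30 to 14.7 times for Lrp4. Of 7 reelin pathway genes, 2 rose and 1 fell in MUT against WT (median -0.57). Lrp8, a receptor of reelin, had values of 7.79, 6.51 and 5.90 in REG, 20.3, 83.8 and 28.9 in MUT and 4.02, 5.07 and 4.80 in WT (2.90, adjusted p = 0.00307 in MUT against WT, and -2.39, adjusted p = 0.00609 in REG against MUT). Dab1, the adaptor that relays the reelin signal, rose in MUT (1.41, adjusted p = 0.0146) and fell in REG against MUT (-1.42, adjusted p = 0.0133). Both were highest in MUT, as Reln was, where read density was 5.86 to 43.2 times background for Lrp8 and 1.16 to 2.06 times for Dab1. The other reelin receptor, Vldlr, was not called (-0.44, adjusted p = 0.441, and 0.74, adjusted p = 0.200). Of 8 relatives of Irx5 and Kcnk2, 1 rose and 1 fell in MUT against WT: Kcnk10, another stretch-gated channel (2.07, adjusted p = 0.0155), and Irx3, a paralog of Irx5 (-2.44, adjusted p = 0.0108). Of these 8, 1 rose and 3 fell in REG against MUT, among them Irx4 (-1.86, adjusted p = 0.00725) and Kcnk4 (-1.41, adjusted p = 0.0208). Irx4 values in REG were only 0.209, 0.135 and 0.559. In MUT, read density was 1.89 to 5.98 times background for Irx4 and 1.60 to 3.23 times for Kcnk4. Kcnk10 was at 1.69 to 3.89 times in MUT. Irx3 was at 0.602 to 2.76 times there, with 3.1 estimated reads in MUT replicate 2. None of the genes on these lists was called in REG against WT. Those of smallest p per list there were Ackr3 (-1.05) and Capg (0.75), Fam20b (-1.75) and Cyp24a1 (0.99), Lrp4 (-1.22) and Sostdc1 (-0.69), Fyn (-1.15) and Lrp8 (0.50), and Irx4 (-1.10) and Kcnk4 (-1.05), with adjusted p from 0.509 for Irx4 to 0.739 for Lrp8.

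Markers of other tissues that the dissected suture could hold also differed between groups, and not all in 1 direction within a list. Keratinocyte markers summed to 4.42 to 7.82 in REG, 49.7 to 248 in MUT and 8.92 to 13.1 in WT. Most of the MUT sum came from Trp63, a transcription factor of the epidermis that averaged 129 in MUT, against 1.49 in WT, while Krt5, the basal keratin, averaged 0.882 in MUT and 0.601 in WT. Osteoblast markers summed to 13759 to 34375 in REG, 1384 to 14891 in MUT and 25270 to 45478 in WT. Meningeal markers summed to 19.0 to 59.3 in REG, 17.7 to 29.3 in MUT and 71.6 to 91.1 in WT. Of these 8 meningeal markers, 3 were called lower in MUT than in WT (Nnat, Aldh1a2 and Foxc1) and 1 higher (Slc6a13, 1.19, adjusted p = 0.0436), and their median log2 change was 0.15. Over all genes, 14.6% were called lower and 20.5% higher. Read density at Slc6a13 in MUT was 0.805 to 1.97 times background. None of these markers was under 3 reads in all 3 libraries of a group. Their part in the members' values was not tested.

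Among 10315 genes searched, those whose log2 values followed Dmp1 most closely over the 9 libraries were Tlnrd1 (Pearson r = 0.995), Cc2d2a (0.994), Tmco4 (0.993), Gtf2h3 (0.991) and Sf1 (0.990). Those closest to Reln were D10Wsu102e (0.995), Dclk2 (0.995), Masp1 (0.994), Rxrg (0.994) and Trp63 (0.993). The points share libraries, scaling and the group difference, so this is a description of likeness only.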

How the data were processed

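RNA was sequenced as single-end reads of 75 cycles, and RNA integrity numbers were above 9, per the labels' protocols. Per the submitters' processing notes, STAR 2.6.1d and the build mm10 were used, and Partek for later steps. How reads were counted, on which strand and annotation, and how they were normalized is not given in the sources used here. Judged from its values, the deposited matrix holds a signal in the form of upper-quartile scaled gene counts, with the 75th percentile at 2.76 in every library. Many values are fractional multiples of 1 read, so no count model was used. The authors' table gives, per gene, summary statistics (read as a score, since no unit is given), their p-value and FDR and a log2 ratio for each pair of groups. Matrix columns carry no gene names and were matched to that table's order on 4 statistics (43644 of 43644 genes within a relative tolerance of 1e-06).

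From these values, reads were estimated by dividing each value by the smallest value of its library and subtracting 1. Exon lengths came from GENCODE M21 (42973 genes found, 42843 with an equal start), and promoter sequences from the RefSeq table (GRCm38.p6). The 9 libraries entered a common limma fit (version 3.58.1, R 4.3.3) on log2(value + 0.367). That pseudocount is the median column sum divided by 1e+06. Fold changes are on that scale and understate the change of low genes. The filter asked for a value of 0.367 in 3 or more libraries and left 29107 genes, among them all 10 members. Their values were above 0.367 in every library except Fgf23 in REG replicate 1. The p-values are two-sided and adjusted by Benjamini-Hochberg over all genes tested, and calls are at 0.05. The smallest exact permutation p of 3 against 3 is 0.1, so none was used. As background, the median read density per kb was taken over the exons of 1747 receptor genes. The alternatives were 2 filters, 2 pseudocounts, 3 scalings, array quality weights or a trend in limma, a replicate block, fits of the compared groups alone, single libraries standing for MUT or REG, and each library left out.

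All 10 members are named, with Twist1, the 2 genes of smallest p per comparison in each of the 5 lists of related genes and, for Dmp1 and Reln, the 5 genes with the closest pattern. Tnfsf11, Gja1, Dspp, Vldlr, Trp63, Krt5, Rbfox3, Snap25, Gad1, Gad2, Prox1, Pecam1, Ccl21a, Nnat, Aldh1a2, Foxc1 and Slc6a13 were named after their values were seen. The members and lists were chosen with earlier results of these data known. The fit was also run on simulated log2 values, drawn independently with the same spread in every group. These held no difference in depth, scaling or background between libraries, so that run does not speak to those. The labels mention 3 pairs of samples and explain no pairing. Correlations of deviations between same-numbered libraries ran from -0.20 to 0.10 over 9 pairs, so replicate numbers were not taken to pair libraries. Library names of MUT replicate 2 and of all 3 REG replicates differ from their titles, and the titles were followed. Replicate numbers in REG thus rest on the titles alone. Tables were made in Python 3.11.15 with pandas 2.3.3 and numpy 2.4.6, and figures with matplotlib 3.10.9.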

Additional observations from a re-analysis of the deposited data

How the results depend on the processing

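The count of members called in MUT against WT was 5. It was 3 with a pseudocount 10 times lower, with total-read scaling, with quantile scaling, after background subtraction and with MUT replicate 2 as the only MUT library, and 8 with array quality weights, with REG replicate 3 as the only REG library and with only the 2 groups compared. Leaving out 1 library gave 2 to 6. In REG against MUT the count was 4. It was 2 with the 10 times stricter filter, after background subtraction, with the replicate block, with MUT replicate 2 as the only MUT library and with only the 2 groups compared, 1 with quantile scaling, and 2 to 6 with 1 library left out. Over all genes, 10225 were called in MUT against WT. The count was 4895 with the stricter filter, 5181 with quantile scaling, 4073 after background subtraction, 17589 with array weights and 1777 with MUT replicate 2 alone, and 3756 to 12716 with 1 library left out. REG against MUT called 10653, against 3652, 4200, 3769 and 1494 under the stricter filter, with quantile scaling, after background subtraction and with only MUT replicate 2 for MUT, 6051 with only the 2 groups compared, and 3646 to 11674 with 1 library left out. REG against WT called 0 genes, and 0 to 1616 with 1 library left out, with the 1616 found without REG replicate 3. The cause of these moves was not tested, apart from the stricter filter, under which 11449 genes were tested.

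With the replicate number as a block, Mepe lost its call in both comparisons (adjusted p = 0.0591 and 0.0722) and Fgf23 in REG against MUT (adjusted p = 0.0525), and the members called were 4 in MUT against WT and 2 in REG against MUT. The numbers were not taken to pair libraries.

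Signs that turned were all of members not called in that comparison. In MUT against WT these were Phex with 1 library left out (-0.10, without MUT replicate 2, to 0.51), Sost with total-read scaling (0.41) and after background subtraction (0.50), and Kcnk2 with total-read scaling (0.09). For REG against MUT they were Phex with REG replicate 3 alone (0.72) and with 1 library left out (-0.99 to 0.28), and Kcnk2 with total-read scaling (-0.24) and with MUT replicate 2 alone (-0.00). In REG against WT, total-read scaling turned Mepe (0.23), Phex (0.10), Irx5 (0.01) and Reln (0.15), and background subtraction turned the same genes (0.23, 0.09, 0.01 and 0.18). Array weights turned Mepe (0.01) and Phex (0.00). REG replicate 3 alone turned Mepe (0.33), Phex (0.91), Fgf23 (0.21), Irx5 (0.15) and Kcnk2 (0.34). Leaving out 1 library gave -0.36 to 0.28 for Mepe, -0.81 to 0.46 for Phex, -0.11 to 1.04 for Sost, -0.63 to 0.20 for Irx5 and -0.90 to 0.01 for Kcnk2.

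Fgf23, Pdpn and Irx5 rest on the fewest reads, with as few as 9.1, 11.0 and 9.0 estimated reads in a library. For Pdpn and Irx5 this was MUT replicate 2, the library with the fewest reads in total. For Fgf23 it was REG replicate 1, the library with the most, so depth was not the limit there. Fgf23 could not be tested under the stricter filter. A lone library for MUT or REG is assumed to vary like the other groups. With 3 libraries per group and raised background in MUT, the group and the background cannot be told apart by leaving libraries out.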
